A study of Mus musculus with 24 samples.

Results

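Wild-type small intestine was compared with normal colon on 12 of the 24 arrays of the series, 9 of small intestine and 3 of colon, chosen by their tissue and genotype labels. The small intestinal RNA came from AhCre-positive wild-type mice that received beta-naphthoflavone 3 times in 1 day at 80 mg/kg and were killed 3, 4 or 5 days later, with 3 arrays for each day. AhCre is a Cre recombinase gene behind the Cyp1a1 promoter, which beta-naphthoflavone switches on, and these control mice carried no floxed Apc. The colonic RNA was normal mucosa of 3 symptomatic ApcMin mice, which carry a truncated Apc allele and bear polyps, and the treatment notes list them as untreated. Region therefore differs together with Apc genotype, the AhCre transgene, beta-naphthoflavone and cohort, and these cannot be told apart in any difference given here. The sources name no small intestinal segment, no age and no sex for these mice, and the AhCre mice were kept on an outbred background.

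The small intestine and the colon share an epithelium that renews from crypt stem cells, but the work of its cells changes along the tract. Enterocytes of the small intestine digest sugars and peptides at a brush border and pack absorbed fat into chylomicrons, while colonocytes recover water and salt, use fatty acids made by bacteria and lie under a thick mucus layer. Regional identity is set in part by transcription factors such as Gata4 in the proximal small intestine and by the posterior Hox genes in the hindgut.

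Signal was read as the scaled signal of a probe set, where 100 is the geometric mean of an array, and log2 differences were taken as the mean of the 3 day groups minus colon after an offset of 16 was added to each signal, which shrinks the difference of dim genes. A gene was said to hold when the limma test passed an adjusted p of 0.05 in the same direction on day 3, day 4 and day 5 against colon and the 9 small intestinal arrays did not overlap the 3 colon arrays. The 3 contrasts share the same 3 colon arrays. Among 15427 genes, 650 held as higher in small intestine, which is 4.21%, and 686 held as higher in colon, which is 4.45%. The median log2 difference over all genes was 0.04, and 53.1% of genes lay above 0. Passes at an unadjusted p were counted within lists only, so no share over all genes stands beside those counts.

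Arrays within a group correlated at 0.923 to 0.967 over all probe sets, and a small intestinal with a colonic array at 0.816 to 0.887. Small intestinal arrays of different days correlated at 0.890 to 0.956. Geometric mean signals before scaling ran from 94.4 to 174.5 in small intestine and from 69.7 to 119.5 in colon. The epithelial gene Epcam, an adhesion protein, was bright in both tissues and read 4370 to 7151 in small intestine and 6106 to 9617 in colon. The third day 5 array stood apart by a high signal of exocrine pancreas genes and the first day 3 array by a high signal of adipose genes, and without both the counts of held genes were 574 and 585. The first colon array has another name prefix than the other two, which the labels do not explain, and without it the counts were 585 and 616. Of 187 held genes given by name or in a list of the text, 149 held under all 24 alternative settings run gene by gene, and losses of a call are given as the number of these settings.

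Differences among held genes were often large. In small intestine 252 of the 650 genes and in colon 186 of the 686 had a log2 difference of at least 2 in size, and 17 and 6 had one of at least 6. For 52 small intestinal genes the dimmest of the 9 arrays was still at least 10-fold above the brightest colon array, counted with the offset, and 24 colonic genes showed such a gap the other way. Where a held gene had several probe sets, 98 of 285 genes in small intestine and 103 of 335 in colon held with every one of them, and 28 and 69 had a probe set of the opposite sign.

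**Figure D1:**
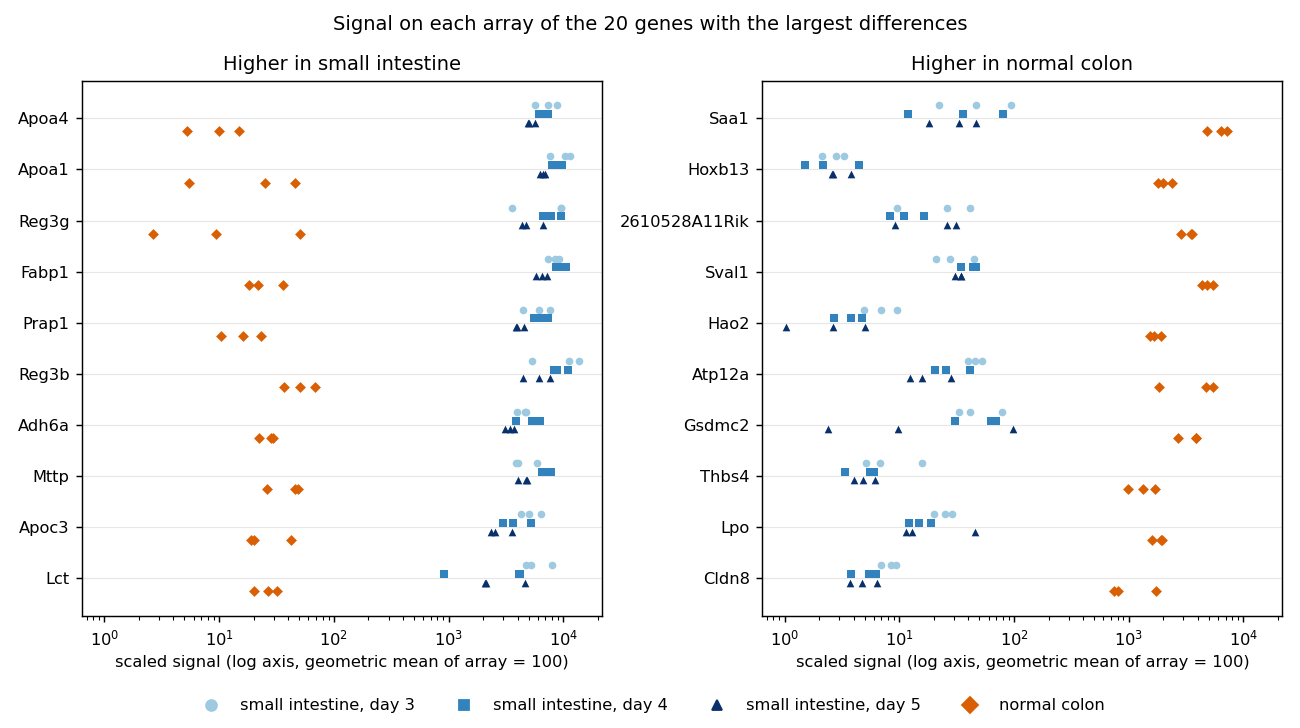
Scaled signal on each of the 12 arrays (log axis) for the 10 held genes with the largest log2 difference in each direction at an offset of 16, with each point 1 array, blue symbols for the 3 small intestinal day groups and orange diamonds for colon. Every gene shows a clear space between the tissues, as the genes were chosen for large differences without overlap. Lct, from 906 to 7932, is the most spread of the small intestinal genes.

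The 10 genes with the largest differences toward small intestine were Apoa4, Apoa1, Reg3g, Fabp1, Prap1, Reg3b, Adh6a, Mttp, Apoc3 and Lct, of which 5 serve fat handling. The order depends on the offset: with an offset of 1, Reg3a (8.04), Cyp3a25 (7.88), Treh (7.54) and Gip (7.35) lay above Apoc3 (7.17), Mttp (7.05) and Lct (6.98). Apoa4, an apolipoprotein of chylomicrons, ran from 4909 to 8849 with a median of 6153 on the small intestinal arrays and read 5.31, 14.9 and 9.96 on the colon arrays. Its log2 difference was 7.95 ± 0.18 (SE, 9 against 3 arrays; largest of the 3 limma adjusted p-values 1.3e-11). The dimmest small intestinal array was 159-fold above the brightest colon array, counted with the offset, and the second probe set of the gene also held. Prap1, a proline-rich acidic protein secreted by the gut, ran from 3871 to 7730 with a median of 5559 and read 16.1, 10.3 and 23.2 in colon. Adh6a, an alcohol dehydrogenase, followed the same pattern with 3103 to 6227 against 22.1 to 29.8.

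Toward colon the 10 leading genes were Saa1, Hoxb13, 2610528A11Rik, Sval1, Hao2, Atp12a, Gsdmc2, Thbs4, Lpo and Cldn8, and with an offset of 1 Hoxb13 (-9.10) passed Saa1 (-7.36). Over the 24 settings Hao2 reached -8.80, Thbs4 -7.87 and 2610528A11Rik -7.69, where Saa1 reached no further than -7.53. Saa1, an acute-phase apolipoprotein that gut epithelium makes in response to bacteria, read 6413, 7238 and 4788 on the colon arrays and 12 to 94.8 with a median of 35.7 in small intestine. Its log2 difference was -6.81 ± 0.35 (largest limma adjusted p 7.4e-08), and both probe sets held. Lpo, the lactoperoxidase that makes antibacterial oxidants, read 1940, 1900 and 1602 in colon against 11.5 to 45.4. Hao2, a peroxisomal hydroxyacid oxidase, lay between 1532 and 1896 in colon and between 1.03 and 9.64 in small intestine. 2610528A11Rik, which RefSeq also lists as Gpr15l, read 3587, 3488 and 2868 in colon and at most 41.1 in small intestine. None of the 20 genes had groups that came near each other, but they were chosen as the largest differences among genes without overlap.

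Promoter sequences of 12325 of the 15427 genes were at hand, from 250 bases before to 50 after the start of each gene (RefSeq, GRCm38.p6), for 531 held genes of small intestine and 529 of colon. Short motifs of known intestinal factors were counted on both strands as plain letter matches, a description of the sequence and not of a bound site. The HNF4 letters CAAAGTCCA were found in 16 of the 531 small intestinal promoters (3.01%), in 2 of the 529 colonic ones (0.378%) and in 72 of all 12325 (0.584%). The GATA letters AGATAA stood in 11.9% of small intestinal, 9.26% of colonic and 9.03% of all promoters, the HNF1 letters GTTAAT in 9.04%, 6.81% and 6.09%, and the CDX letters TTTATG in 55 of 531, 58 of 529 and 9.14% of all. No motif shares a letter position with another in the sequences below.

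The promoters of 5 genes are printed 5′ to 3′ on the strand of the gene with these letters, or their reverse complement, in capitals: the 3 largest differences among genes with the HNF4 letters, and Fabp1 and Lct, 2 of the 10 leading genes. Treh lies at chr9:44672983-44673282 (+), Alpi at chr1:87101557-87101856 (-), Pdzk1, for which 1 of 2 listed starts is shown, at chr3:96829815-96830114 (+), Fabp1 at chr6:71199629-71199928 (+) and Lct at chr1:128328269-128328568 (-).
Treh: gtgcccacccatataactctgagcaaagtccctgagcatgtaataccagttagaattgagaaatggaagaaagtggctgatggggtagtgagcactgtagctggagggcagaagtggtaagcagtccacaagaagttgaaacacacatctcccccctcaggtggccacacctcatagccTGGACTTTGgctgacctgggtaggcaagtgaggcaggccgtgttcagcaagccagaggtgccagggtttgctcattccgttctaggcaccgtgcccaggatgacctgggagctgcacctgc
Alpi: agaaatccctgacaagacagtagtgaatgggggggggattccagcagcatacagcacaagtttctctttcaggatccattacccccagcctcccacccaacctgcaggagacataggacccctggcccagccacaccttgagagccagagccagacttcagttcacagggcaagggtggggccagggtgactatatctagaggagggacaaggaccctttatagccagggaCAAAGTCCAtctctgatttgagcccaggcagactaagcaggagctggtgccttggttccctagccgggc
Pdzk1: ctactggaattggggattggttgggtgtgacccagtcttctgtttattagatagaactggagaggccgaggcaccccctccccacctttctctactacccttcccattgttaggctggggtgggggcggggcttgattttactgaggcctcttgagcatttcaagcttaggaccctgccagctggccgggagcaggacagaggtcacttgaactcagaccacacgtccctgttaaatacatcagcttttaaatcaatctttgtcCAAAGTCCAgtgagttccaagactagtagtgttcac
Fabp1: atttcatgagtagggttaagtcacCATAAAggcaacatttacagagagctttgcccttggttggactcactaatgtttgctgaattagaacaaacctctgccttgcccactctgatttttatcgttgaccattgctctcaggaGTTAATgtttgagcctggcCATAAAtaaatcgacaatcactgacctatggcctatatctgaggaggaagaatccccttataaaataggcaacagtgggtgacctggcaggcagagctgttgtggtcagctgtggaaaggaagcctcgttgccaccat
Lct: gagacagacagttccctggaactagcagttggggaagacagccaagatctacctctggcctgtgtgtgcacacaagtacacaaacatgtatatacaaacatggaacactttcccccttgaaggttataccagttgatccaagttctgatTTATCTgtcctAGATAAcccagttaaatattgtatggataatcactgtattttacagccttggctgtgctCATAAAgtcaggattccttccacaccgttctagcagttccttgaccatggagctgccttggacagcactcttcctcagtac
The capitals mark the HNF4 letters in Treh, Alpi and Pdzk1, CDX and HNF1 letters in Fabp1, and GATA and CDX letters in Lct. Treh, Alpi and Pdzk1 had log2 differences of 6.21, 5.57 and 5.26, and the other 13 small intestinal genes with the HNF4 letters ran from 0.90 for Abcd3 to 4.69 for Nat8. On the colonic side the letters occurred in Fhl1 (-2.60) and Clec14a (-1.14).

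Most genes of fat absorption held. Of 29 measured genes for lipid absorption and lipoproteins, 23 held as higher in small intestine and 1, Acsl3, as higher in colon, with a median log2 difference of 2.56. Fabp1, which carries fatty acids inside the enterocyte, ran from 5737 to 10475 with a median of 8534 against 36.1, 18.3 and 22 in colon. The difference was 7.63 ± 0.18 (largest limma adjusted p 1.5e-11). Mttp, which loads lipid onto apolipoprotein B, differed by 6.58 ± 0.19, and Apob itself by 3.11 ± 0.33, with colon arrays at 177, 568 and 209 and 1 of 2 probe sets held for Apob. Npc1l1, the sterol transporter that takes up cholesterol, and Mogat2, which rebuilds triglyceride, differed by 5.54 ± 0.24 and 5.50 ± 0.20. Fabp2 differed by 4.31 ± 0.24, Slc27a4 by 3.96 and Dgat1 by 3.32. Acsl3, an acyl-CoA synthetase, went the other way, with 1165, 883 and 843 in colon and 54.2 to 163 in small intestine (-2.95 ± 0.25).

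Digestive enzymes and nutrient carriers moved with the fat genes. Among 18 brush border hydrolases 12 held as higher in small intestine (median log2 difference 2.86), and among 21 carriers and enzymes of sugar and amino acid uptake 18 did so and 0 held as higher in colon (median 3.15). Lct, the lactase of the brush border, ran from 906 to 7932 with a median of 4233 against 20.2, 32.1 and 26.9 in colon, a difference of 6.35 ± 0.40 (largest limma adjusted p 9.5e-07). The groups did not overlap, which the rule for a held gene requires, and the lowest value, 906, was on the third array of day 4. Treh, which splits trehalose, differed by 6.21 ± 0.25, the peptidases Mme and Anpep by 5.75 ± 0.26 and 5.46 ± 0.21, and the phosphatase Alpi by 5.57 ± 0.19. Mep1a, the alpha subunit of meprin, was the only hydrolase of the list that held as higher in colon, with 680, 1294 and 938 against 124 to 546 (-1.92 ± 0.36, largest limma adjusted p 0.044), a call that 10 of 24 alternative settings lost. Its partner Mep1b held as higher in small intestine (2.44).

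Slc2a2, the sugar carrier of the basolateral membrane, ran from 2242 to 3461 with a median of 2646 in small intestine and read 36.4, 26 and 13.3 in colon (6.09 ± 0.20, largest limma adjusted p 7.8e-10). Slc5a1, which takes up glucose with sodium, was present in both tissues, at 4384 to 6842 against 812, 1276 and 768, and differed by 2.56 ± 0.18. The peptide carrier Slc15a1 differed by 1.05 only, with colon arrays between 668 and 788, and 8 of 24 settings lost the call. Slc6a19, Slc7a9 and Slc3a1, carriers of neutral and basic amino acids, differed by 5.10, 4.08 and 3.91. For uptake of vitamins and minerals, 7 of 21 genes held as higher in small intestine and 0 as higher in colon (median 1.06), led by Slc13a1 (4.17), which takes up sulfate, Amn (4.05), part of the vitamin B12 receptor, and the folate carrier Slc46a1 (2.39).

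**Figure D2:**
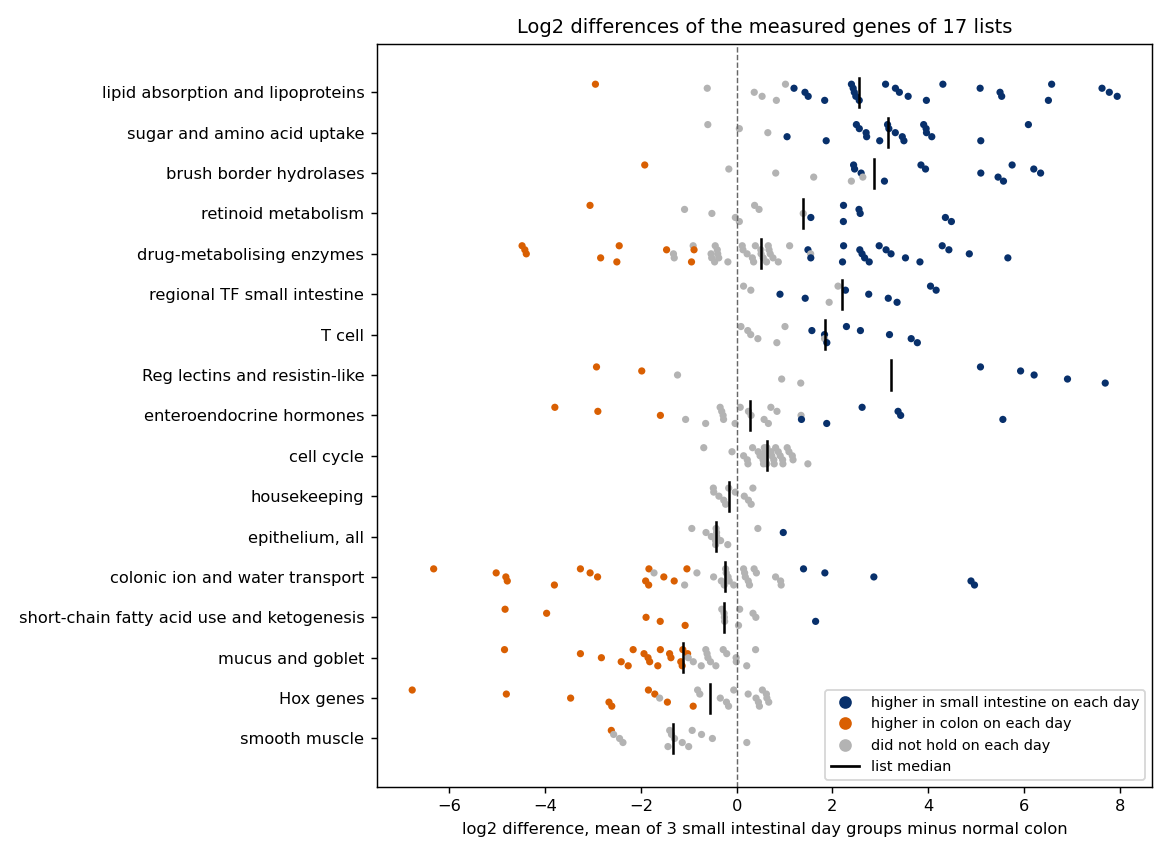
Log2 difference, small intestine minus colon, of each measured gene of 17 lists; points are genes, blue where they held as higher in small intestine, orange where they held as higher in colon and grey where they did not hold, and black bars are list medians. Lipid, sugar and hydrolase genes lie to the right, with medians of 2.56, 3.15 and 2.86, mucus genes lie to the left at -1.12, and the housekeeping median is -0.17.

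Bile acid genes were split. Of 11 measured, 3 held as higher in small intestine, the exporters Abcc2 (4.51 ± 0.25), Slc51a (4.33 ± 0.20) and Slc51b (2.01), and 1 as higher in colon. That gene was Fabp6, the ileal bile acid binding protein, which read 136, 170 and 81 in colon and 2 to 29.2 with a median of 13.5 in small intestine (-2.29 ± 0.25, largest limma adjusted p 0.00083). Slc10a2, the ileal bile acid uptake carrier, lay between 1.35 and 14.7 in small intestine and at 11.9, 5.32 and 5.86 in colon, so that both defining genes of the distal ileum were at low signal on all 9 small intestinal arrays.

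Retinoid and drug enzymes differed in both directions. Of 15 retinoid genes 7 held as higher in small intestine, among them Rdh7 (4.49 ± 0.44) and Rbp2, which carries retinol in the enterocyte (4.36 ± 0.36), and 1, Rdh16, as higher in colon (-3.06 ± 0.38, lost under 2 of 24 settings). Of 54 drug-metabolising enzymes 17 held as higher in small intestine and 9 as higher in colon (median 0.51). Cyp3a25 had the largest difference, 5.66 ± 0.78, and the widest spread, from 93.4 to 3137 among the small intestinal arrays against 9.04, 1.23 and 2.18. The colonic side held Cyp2d34 (-4.48 ± 0.23), Cyp2d10 (-4.39 ± 0.21) and Cyp2d9 (-2.84), neighbours in a family of near-identical genes whose probe sets may share RNA, and the sulfotransferase Sult1a1, with 1783, 2368 and 1934 in colon against 48.7 to 145 (-4.42 ± 0.21). Cyp2d26, of the same subfamily, held the other way (2.98).

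Genes of the aryl hydrocarbon receptor, which beta-naphthoflavone activates, were examined because only the small intestinal mice were treated. Of 11 measured, 4 held as higher in small intestine and 0 as higher in colon, with a median of 0.23. Cyp1a1, the classical target, ran from 883 to 3342 with a median of 1853 in small intestine and read 57.1, 48.1 and 67.7 in colon (4.71 ± 0.22, largest limma adjusted p 1.5e-07). Cyp1b1 differed by 2.73 ± 0.31, Xdh by 2.13 ± 0.24 and Nqo1 by 0.97 ± 0.19, the last lost under 4 of 24 settings. For Ahrr (1.06), Tiparp (0.23), Fgf21 (0.17), Aldh3a1 (0.13), Ahr (-0.09), Arnt (-0.34) and Scin (-1.38) the difference did not hold. Scin gained a call as higher in colon under 10 of 24 settings. Region and treatment cannot be told apart for these genes.

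Antimicrobial lectins divided between the tissues. Reg3g, a lectin that kills Gram-positive bacteria, ran from 3576 to 9576 with a median of 6691 in small intestine and read 9.47, 50.5 and 2.68 in colon (7.70 ± 0.36, largest limma adjusted p 3.1e-08). Reg3b differed by 6.91 ± 0.27, Reg1 by 6.21 ± 0.44 and Reg3a by 5.93 ± 0.31. Their relative Reg4 was the reverse, with 9028, 6878 and 5530 in colon against 627 to 1195 (-2.93 ± 0.18), and Retnla, a resistin-like protein, also held as higher in colon (-1.98, lost under 1 of 24 settings). Of 11 measured Paneth cell genes, 3 held as higher in small intestine: Itln1 (5.09 ± 0.36), Mmp7, which cuts defensin precursors (3.26 ± 0.25), and Defa3 (1.16 ± 0.22), a dim call at 17.9 to 52.2 that 10 of 23 settings lost. The setting without dim probe sets removed Defa3. Mptx1, a mucosal pentraxin, held as higher in colon (-2.18 ± 0.30), lost under 11 of 24 settings, with means of 2338, 3378 and 728 on days 3, 4 and 5 against 7849 in colon.

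Most bacterial sensing genes did not hold, and 10 of 25 lay above 0 (median -0.46), where 53.1% of all genes did. Of the 25, 6 held as higher in colon (Saa1, Gsdmc2, Saa2, Tlr1, Tlr4 and Cd14) and 1, the alarmin Il33, as higher in small intestine (2.42 ± 0.18). The call of Tlr4 was lost under 4 of 24 settings. Gsdmc2, a gasdermin, read 2697, 3888 and 3866 in colon and 2.41 to 98.4 in small intestine (-5.97 ± 0.42). Saa2 followed Saa1 with -2.58 ± 0.18, but the probe sets of these near copies may share RNA.

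Hox genes, which give cells their position along the body, differed by paralogue group. Of 24 measured, 0 held as higher in small intestine and 9 as higher in colon, and all 9 belonged to paralogue groups 9 to 13, where they were 9 of 10 measured genes. Log2 differences in these groups ran from -6.78 to -0.91 with a median of -2.23, whereas the 14 genes of groups 1 to 8 ran from -0.82 to 0.67 with a median of 0.32 and 0 of them held in the limma test, 1 passing at an unadjusted p of 0.05 on each day. Hoxb13, the most posterior gene of its cluster, read 1977, 2391 and 1808 in colon and 1.51 to 4.46 with a median of 2.64 in small intestine, at the bottom of the measured range (-6.78 ± 0.16, largest limma adjusted p 1.2e-11). Hoxd13 read 1842, 1857 and 1675 in colon and 33.9 to 82.1 in small intestine (-4.81 ± 0.20, largest limma adjusted p 8.1e-09), and its second probe set held as well.

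Hoxd10 (-3.47), Hoxa10 (-2.67), Hoxb9 (-2.61), Hoxa9 (-1.84) and Hoxa13 (-1.71) held with moderate colon signals, such as 121, 177 and 299 for Hoxa13 and 153, 298 and 211 for Hoxb9. Hoxd11 (-1.45) and Hoxa11 (-0.91) were near the limit and were lost under 6 of 23 and 14 of 24 settings. The setting without dim probe sets removed Hoxd11. Hoxd9 (-1.61, largest limma adjusted p 0.078) did not hold, with 3.82 to 78.3 in small intestine against 66.6, 92.7 and 153. In the anterior groups Hoxc6 had the largest difference, 0.67, from small intestinal arrays of 115 to 413 that overlapped colon arrays of 83.9 to 148.

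**Figure D3:**
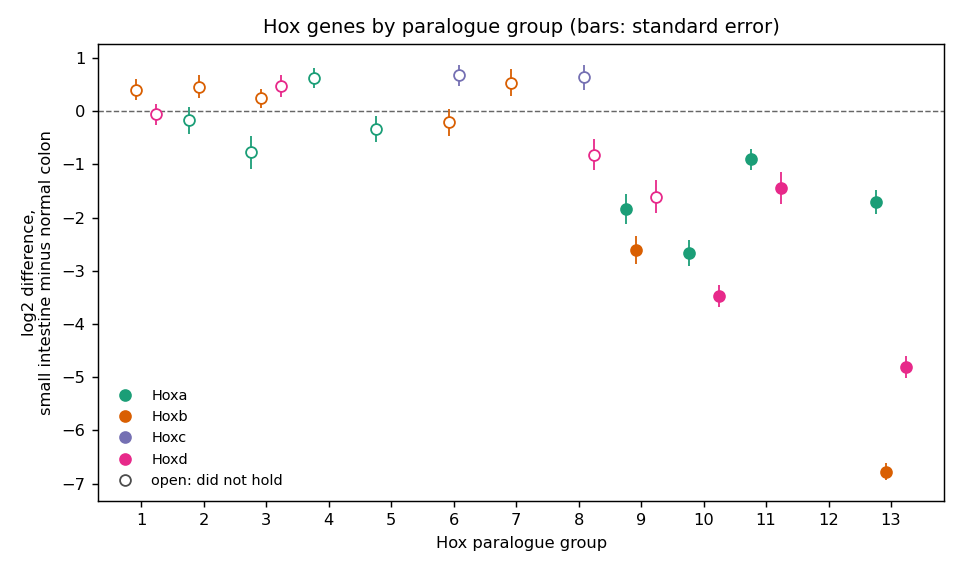
Log2 difference, small intestine minus colon, of 24 Hox genes against their paralogue group; points are genes coloured by cluster, filled where they held and open where they did not, with bars of 1 standard error from the fit. Groups 1 to 8 stay near 0, while groups 9 to 13 lie below it, down to -6.78 for Hoxb13.

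Some held genes lay beside each other. In the RefSeq gene order, 15.4% of 648 placed small intestinal genes had a neighbouring measured gene that held in the same direction, where 8.12% of all 15386 placed genes had such a neighbour, and for colon the shares were 14.3% of 684 and 8.57%. Runs of at least 3 such genes numbered 4 and 9. They included Apoa1, Apoc3 and Apoa4 on chromosome 9 and 5 Nat8 genes on chromosome 6 for small intestine, and Hoxa9 to Hoxa13 with an antisense gene on chromosome 6, Hoxd10 to Hoxd13 on chromosome 2 and 5 Cyp2d genes on chromosome 15 for colon. Several of these runs are families of similar genes whose probe sets may share RNA, or of sense and antisense genes.

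Genes of salt and water handling included several of the large colonic differences. Of 40 genes of colonic ion and water transport, 14 held as higher in colon and 5 as higher in small intestine (median -0.25). Atp12a, the proton and potassium pump of the distal colon, read 1852, 5469 and 4717 in colon and 12.4 to 53 with a median of 28.1 in small intestine (-6.33 ± 0.28, largest limma adjusted p 2.2e-08). Aqp8, a water channel of colonocytes, read 1498, 4076 and 2839 against 31.4 to 112 (-5.02 ± 0.32, largest limma adjusted p 1.4e-06). Car1, a carbonic anhydrase, read 723, 2811 and 2542 against 21.9 to 73.7 (-4.79 ± 0.35). For all 3 genes the first colon array was the lowest of the colon group. That it lay above every small intestinal array follows from the rule for a held gene.

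The chloride channel Ano1 differed by -4.82 ± 0.32, Hsd11b2, which shields the mineralocorticoid receptor from cortisol-like steroids, by -3.81 ± 0.18, the receptor Nr3c2 by -1.52 ± 0.19 and Scnn1a, a subunit of the sodium channel that aldosterone controls, by -1.90 ± 0.22. Slc26a3, the chloride and bicarbonate exchanger, was bright in both tissues, at 6861, 7282 and 5773 against 1373 to 2725 (-1.83 ± 0.20), and all 4 of its probe sets held. Its relative Slc26a6 was the reverse, with 1912 to 4520 in small intestine against 76.7, 71.7 and 86.7 (4.89 ± 0.22). The peptides that switch on guanylate cyclase C were also split: Guca2b, uroguanylin, ran from 2599 to 5320 against 77.3, 92.1 and 169 (4.97 ± 0.21), and Guca2a, guanylin, held as higher in colon (-1.30), lost under 6 of 24 settings.

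Use of bacterial fatty acids followed the colon in part. Of 14 genes, 5 held as higher in colon and 1, Slc16a3, as higher in small intestine (1.65). Acsm3, which activates butyrate, read 752, 918 and 952 in colon and 4.3 to 59.2 in small intestine (-4.84 ± 0.24), and the carrier Slc5a8 differed by -3.97 ± 0.50. Slc16a1, a lactate and butyrate carrier, was bright in both tissues (-1.08 ± 0.20, lost under 7 of 24 settings).

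Mucus and goblet cell genes were higher in colon across the list, with 17 of 31 held as higher in colon, 0 as higher in small intestine, and 29 of 31 below 0 (median -1.12). Over all genes 53.1% lay above 0. The main gel mucin Muc2 read 12485, 9408 and 7670 in colon and 3097 to 5517 with a median of 4580 in small intestine (-1.17 ± 0.18, largest limma adjusted p 0.008). The mucin Muc3 also held as higher in colon (-1.37), but 16 of 24 settings lost this call. Clca1, secreted by goblet cells, differed by -1.82 ± 0.24 and was lost under 1 of 24 settings, the sialyltransferase St6galnac6 by -4.85 ± 0.22 and the channel Best2 by -3.26 ± 0.32. Atoh1, the factor that sets the secretory fate, differed by -1.85 ± 0.18, and Spdef, which matures goblet cells, by -1.02 ± 0.18, lost under 5 of 24 settings. In RNA from a mixture of cells, fewer cells of a type and less RNA per cell cannot be told apart.

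Hormone genes divided by region. Of 24 enteroendocrine genes 6 held as higher in small intestine and 3 as higher in colon. Gip, the incretin of K cells, ran from 796 to 1427 with a median of 991 against 5.74, 3.79 and 5.61 in colon (5.56 ± 0.19, largest limma adjusted p 7.6e-10). Sct (3.43 ± 0.20), Cck (3.37 ± 0.19), Nts (2.62 ± 0.41), Ghrl (1.88 ± 0.20) and Sst (1.35 ± 0.24) followed, with Nts and Sst lost under 6 and 3 of 24 settings. Insl5, a peptide of colonic L cells, read 425, 810 and 702 in colon against 16.2 to 66 (-3.80 ± 0.28), and Pyy read 758, 1298 and 872 against 83.1 to 162 (-2.90 ± 0.22). Isl1, a factor of endocrine cells, held at low signal (-1.59) and was lost under 9 of 24 settings. Gcg, the glucagon gene, overlapped between the tissues, with a difference of -0.31 ± 0.19.

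Among transcription factors known for the small intestine, 8 of 12 held as higher there and 0 as higher in colon (median 2.19). Gata4 ran from 415 to 879 with a median of 741 against 58.8, 47.1 and 61 (3.35 ± 0.21, largest limma adjusted p 7.7e-07). Creb3l3, which drives lipid genes, differed by 4.17 ± 0.18, Onecut2 by 4.05 ± 0.26, Nr1i3 by 3.17 ± 0.29, Tbx3 by 2.76 ± 0.23, Gata5 by 2.27 ± 0.23, Ppara by 1.43 ± 0.20 and Nr1h3 by 0.91 ± 0.18, the last lost under 7 of 24 settings. Osr2 (2.12), Pdx1 (1.93), Bcl11b (0.30) and Nr1h4 (0.14) did not hold. On the list of colonic factors 8 of 12 held as higher in colon and all 8 were Hox genes, while Klf14 (-0.79), Ets2 (-0.70), Meis2 (-0.27) and Meis1 (-0.19) did not hold. Ets2 gained a call as higher in colon under 4 of 24 settings.

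Factors of a list meant for the whole intestine were not uniform, and Isx was near the floor on the colon arrays. Of 20, 4 held as higher in small intestine: Isx (5.00 ± 0.26), which limits carotenoid uptake, Hnf4g (3.25 ± 0.24), Maf (2.54 ± 0.19) and Esrra (1.33 ± 0.23). Another 7 held as higher in colon: Foxa1 (-2.42 ± 0.18), Ehf (-2.13 ± 0.22), Foxa2 (-1.84 ± 0.21), Sox9 (-1.38 ± 0.20), Cdx1 (-1.27 ± 0.25), Foxa3 (-1.27 ± 0.23) and Klf4 (-1.22 ± 0.20). Isx ran from 389 to 987 against 3.01, 4.71 and 3.35, whereas the paralogues Hnf4a and Hnf4g parted: Hnf4a read 2183 to 3637 against 3362, 3487 and 3019 (-0.19 ± 0.18), and Hnf4g 446 to 694 against 92.8, 31.3 and 28.1. Cdx2, which specifies intestine, overlapped between the tissues (0.88 ± 0.23), while Cdx1 read 879, 1132 and 1041 in colon against 237 to 618. The calls of Esrra, Cdx1, Foxa3 and Klf4 were lost under 5, 6, 4 and 3 of 24 settings.

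Counts of junction, stem cell and structural genes are read beside the 4.21% and 4.45% of all genes that held in each direction. Of 21 claudins and junction genes 2 held, Cldn8, a sealing claudin with 1729, 805 and 748 in colon against 3.71 to 9.32 (-5.55 ± 0.22), and Cldn15, which forms cation pores, with 2123 to 3568 in small intestine against 405, 639 and 434 (2.44 ± 0.20). Of 24 stem cell and Wnt genes 1 held as higher in small intestine, Olfm4, a glycoprotein of crypt base cells, with 2481 to 3826 against 22.8, 34.4 and 53.6 (5.96 ± 0.19, largest limma adjusted p 3.8e-10), and 3 as higher in colon, Sox9, Ephb3 (-1.34 ± 0.20) and Lrig1 (-1.33 ± 0.21, lost under 3 of 24 settings). None of 30 cell cycle genes held in the limma test, although 28 of them lay above 0 (median 0.63), where 53.1% of all genes did. At an unadjusted p of 0.05 on each day 8 were higher in small intestine, a share not counted over all genes. None of 12 tuft cell genes and none of 11 housekeeping genes held (medians 0.03 and -0.17), and 0 of either list passed unadjusted. Of 12 genes on a general epithelial list, 1 held, Vil1, the villin of microvilli (0.97 ± 0.17, lost under 3 of 24 settings).

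**Figure D4:**
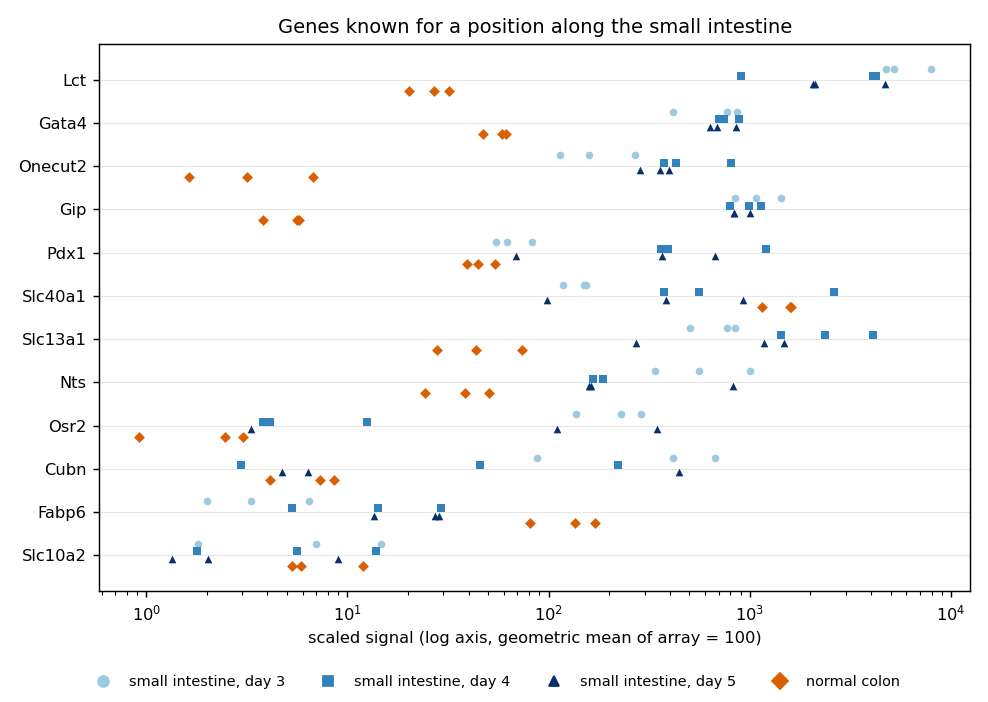
Scaled signal on each array (log axis) of 12 genes known for a position along the small intestine, with blue symbols for the 3 small intestinal day groups and orange diamonds for colon. Gip and Gata4 are tight, Pdx1 runs from 54.9 to 1199 and Osr2 from 3.32 to 345 among the small intestinal arrays, and Fabp6 and Slc10a2 stay at 29.2 or below there.

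The small intestinal arrays differed among themselves in genes of position. Of 19 genes of duodenum and jejunum 13 held as higher in small intestine (median 3.37), and of 16 genes of the ileum 9 did and 3 held as higher in colon (median 2.34). Pdx1, the duodenal factor, read 62.1, 82.7 and 54.9 on day 3, 1199, 361 and 391 on day 4, and 68.4, 365 and 671 on day 5. Slc40a1, the iron exporter of the duodenum, read 153, 118 and 150.5 on day 3, 2617, 557 and 373 on day 4, and 98.1, 381 and 924 on day 5. Both were highest on the first array of day 4 and low on all 3 arrays of day 3 and the first array of day 5. They are single members of the list of 19, whose summed signal did not follow them below its highest array. That sum was 35578, 46140 and 37698 on day 3, 47978, 36970 and 33063 on day 4, and 31668, 27896 and 27725 on day 5.

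Osr2, Cubn and Nts, 3 of the ileum list chosen after their values were seen, varied in another way, whereas the summed signal of the whole list ran from 23218 to 42549 and was 35759 on the array highest in Pdx1. Osr2 read 137, 288 and 230 on day 3, at most 12.5 on day 4, and 345, 109 and 3.32 on day 5. Cubn, the receptor for vitamin B12 with intrinsic factor, read 672, 415 and 87.8 on day 3, 45.8, 220 and 2.97 on day 4, and 443, 6.39 and 4.77 on day 5. Nts read 337, 999.7 and 556 on day 3, 166 to 186 on day 4, and 823, 162 and 158 on day 5. Pdx1 (1.93 ± 0.48), Slc40a1 (-2.02 ± 0.55), Osr2 (2.12 ± 0.57) and Cubn (2.24) did not hold. Slc40a1 and Cubn overlapped the colon arrays, while Pdx1 and Osr2 did not overlap them but came as near as 54.9 to 54.3 and 3.32 to 3.01. Whether the segments sampled differed between mice was not tested, as the sources name none.

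Of 15 T cell genes 8 held as higher in small intestine and 0 as higher in colon (median 1.84), and their summed signal was 6846 to 11970 against 1496 to 2473. Gzma, a granzyme of cytotoxic lymphocytes, ran from 2487 to 3687 with a median of 2837 against 198, 224 and 172 (3.77 ± 0.18, largest limma adjusted p 2.4e-08). Gzmb (3.65 ± 0.33), Cd7 (3.19 ± 0.24), Ccl5 (2.59), Cd8a (2.29), Cd3g (1.88), Itgae (1.84), the integrin that holds lymphocytes in epithelium, and Nkg7 (1.57) also held. Values were 1.84 for Cd3d, 1.01 for Cd3e, 0.84 for Klrd1, 0.44 for Cd8b1, 0.29 for Cd2, 0.23 for Xcl1 and 0.09 for Ptprc, the marker of all leukocytes, and none of these held, Cd3d because its arrays of 71.4 to 235 overlapped colon at 15.2, 78.9 and 14.9.

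Few genes of the other cell type lists held. Smooth muscle genes summed to 3808 to 13214 in small intestine and 15467 to 23804 in colon, and 1 of 14, Tagln, held as higher in colon (-2.62 ± 0.51, lost under 8 of 24 settings), 6 passing unadjusted (list median -1.33). Fibroblast genes summed to 7887 to 14017 against 14101 to 18744, and 1 of 20, Postn, held (-3.01 ± 0.38), where 4.45% of all genes held as higher in colon. Of these 20 genes 4 passed unadjusted as higher in colon, and 16 lay below 0 (list median -0.52). Of 9 mast cell genes Kit (-1.68 ± 0.20), which interstitial cells of Cajal also use, and Cma1 (-1.25) held as higher in colon, and of 15 myeloid genes Mrc1 did (-1.26), with Cma1 and Mrc1 lost under 1 and 6 of 24 settings. None held of 16 B and plasma cell, 8 MHC class II, 16 interferon response, 12 enteric nerve, 9 blood vessel, 13 squamous, 4 stomach and 3 blood genes in the limma test. Unadjusted on each day, 1 interferon response and 1 MHC class II gene passed as higher in small intestine, and 2 B and plasma cell genes and 1 nerve gene as higher in colon. The share of all genes that passed in this way was not counted. How far the cell mixture accounts for any difference was not tested.

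**Figure D5:**
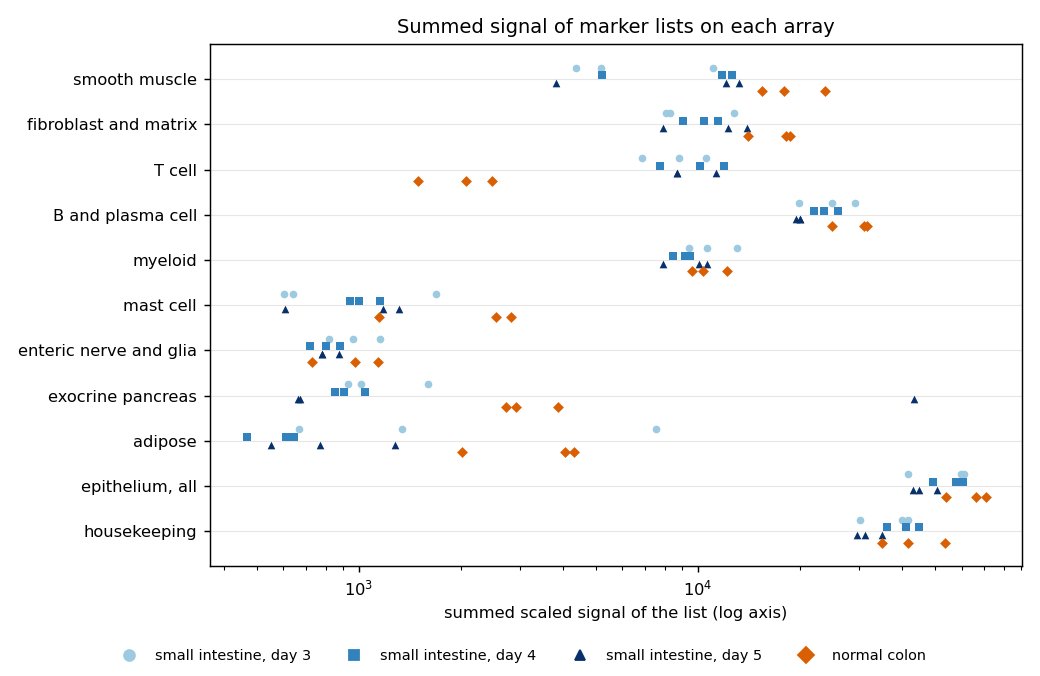
Summed scaled signal (log axis) of 11 marker lists on each array, with blue symbols for the 3 small intestinal day groups and orange diamonds for colon. T cell sums of small intestine lie above all colon sums and smooth muscle sums below them, and a single day 5 array reads 43355 for exocrine pancreas.

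Exocrine pancreas genes were high on a single array of small intestine, and adipose genes on another and on the colon arrays. Of the 9 exocrine pancreas genes 8 had a log2 difference above 0, and only Cela1 (-3.50) lay below. The third day 5 array summed to 43355 over 9 exocrine pancreas genes, the other small intestinal arrays to 662 to 1605 and the colon arrays to 2724 to 3872, of which Cela1 made most with 3491, 2550 and 2431. Pnliprp2 was the only gene of this list that held (2.69, with 2439 on its highest array, lost under 4 of 24 settings). The first day 3 array summed to 7551 over 5 adipose genes, the other small intestinal arrays to at most 1340, and the colon arrays to 2025 to 4314. Adipoq, made by fat cells, read 952 on that array, 3.63 to 110 on the others and 352, 207 and 421 in colon, and none of the 5 adipose genes held. Scd1, a lipid enzyme of the position list that fat cells also make, read 2065 on that array against a median of 157 and colon arrays of 1672 to 2240, and did not hold.

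Day groups were also tested against each other. In these tests between day groups, 1.52% of all 15427 genes differed between day 4 and day 3, 1.19% between day 5 and day 3, and 0.0519% between day 5 and day 4. Of the 1336 held genes 16 (1.2%), 6 (0.449%) and 1 (0.0749%) differed in the same tests, 19 in at least 1 of them, 11 of small intestine and 8 of colon. Cyp1a1 averaged 1082 on day 3, 2684 on day 4 and 2530 on day 5, with limma adjusted p-values of 0.031 and 0.045 for days 4 and 5 against day 3. Onecut2 averaged 181, 537 and 345, and Vnn1, a pantetheinase, 1081, 249 and 688. The count was 3 without the second and 50 without the first array of day 3. Day cannot be told apart from cohort, as animal names differed in form between the day groups.

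The same genes were read on the 12 arrays that the comparison did not use, 9 of small intestine of induced AhCre Apcfl/fl mice and 3 of pooled colonic polyps of ApcMin mice. Region again differs together with Apc genotype, the AhCre transgene, beta-naphthoflavone and cohort, so these cannot be told apart here either. Of the 650 small intestinal genes 402 (61.8%) had all 9 Apcfl/fl arrays above all 3 polyp arrays, and 2 had them all below, where 12.8% of all 15427 genes had them all above. Of the 686 colonic genes 242 (35.3%) had the 9 arrays all below the polyps and 19 all above, where 8.58% of all genes had them all below. Gata4 read 452 to 728 on the Apcfl/fl arrays and 32.9 to 43.4 in polyps, and Hoxb13 read 1.26 to 4.07 against 887 to 1393. Some colonic genes overlapped: Aqp8, of colonocytes, read 17.1 to 75.4 against 60 to 129 in polyps, and Insl5, of L cells, 6.37 to 52.6 against 37.8 to 53.4. Among the 19 colonic genes that lay all above the polyps was Slc26a3, with 270 to 2517.5 against 8.27 to 184. Sult1a1, at 109 to 262 against 55.6 to 92.2, and Lrig1, at 462 to 1323 against 123 to 177, did so too. Reg3g, at 9.47, 50.5 and 2.68 in normal colon, read 989, 1027 and 1430 in polyps.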

How the data were processed

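RNA of 24 samples was measured on single-colour Affymetrix mouse expression arrays, 1 array per sample, and 12 were compared. The deposited values are a score made by the authors: tested on the file, each array's natural-log signals had been centred on their mean and divided by their SD. Signals were recovered from the spacing of the lowest scores, taken as a floor of 1 and steps of 0.1. All signals under 500 came out whole within 0.1 of a step. A second deposited table was identical and not used. Signals were scaled to a geometric mean of 100 per array. No detection calls were used, so that signals of a few units are near the floor, and array number limits precision.

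Of 35110 probe sets, 44 controls were left out and 35066 were tested. Probe sets with 1 symbol in the platform annotation (28153, of which 28030 matched RefSeq) gave 15427 genes, each read by its brightest probe set. log2(signal + 16) was fitted in limma 3.58.1 (R 4.3.3) over the 12 arrays with a mean for each of 4 groups, moderated variances and Benjamini-Hochberg adjustment over all probe sets, at a threshold of 0.05. The fit was tested on simulated data. Genes named are the 10 largest held differences in each direction, the held genes that differed between days, and members of 45 lists of known function. The members and lists were chosen with earlier results of these data known. The samples are labelled as separate mice, so that p-values measure the spread between mice. Alternatives covered scaling, offset, dim probe sets, probe set choice, the arrays fitted and leaving out each array.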

Additional observations from a re-analysis of the deposited data

Results flagged for a closer look

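Among the summed signals of 45 lists over the 9 small intestinal arrays, 3 had a single array far from the others, by Dixon's criterion on the gap to the next array as a share of the whole range. Chance alone flags about 1 in 20 such groups. Exocrine pancreas genes summed to 43355 on the third array of day 5 and to at most 1605 on the others, a gap of 0.978 of the range. Adipose genes summed to 7551 on the first array of day 3 and to at most 1340 elsewhere, a gap of 0.877. Tuft cell genes summed to 1795 on the second array of day 3 and to 1312 on the next, a gap of 0.516.

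Another 19 held genes differed between days by the limma test of the difference itself at an adjusted p of 0.05, with 3 arrays a day. From day 3 to day 4, genes higher in small intestine changed by 1.27 (log2) for Cyp1a1, 1.49 for Onecut2, 1.12 for Elovl6 and 0.90 for Snx7, and by -1.96 for Vnn1, -1.89 for 1700016C15Rik, -1.07 for Gramd1b, -1.04 for Coq4 and -1.01 for Abcg8. Genes higher in colon changed over the same days by 1.46 for Gatm, 1.28 for Ppp1r3b and 0.91 for Sybu, and by -2.50 for Ttr, -2.12 for Rdh16, -1.47 for Wfdc2 and -1.004 for Cyp2f2. From day 3 to day 5 the differences were 1.54 for Ppp1r3b, 1.19 for Cyp1a1, -1.03 for Nat8f5, -1.08 for Cyp2f2, -1.32 for Ercc8 and -1.79 for Mptx1. Mptx1 also fell by 2.33 from day 4 to day 5. Against colon, the call of Gatm was lost under 7 of 24 settings, of Gramd1b and 1700016C15Rik under 4, of Ttr under 2, and of Coq4 and Snx7 under 1. The cause of these differences was not tested.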

How the results depend on the processing

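The counts of 650 and 686 held genes ranged from 481 to 727 and from 469 to 822 over 26 alternatives and stayed within 1.5 times their main values. No named gene reversed, and 38 of 187 lost their call in at least 1 of 24 settings. The number of held genes that differed between days was less stable: 19 in the main fit, 1 on the standardised values as deposited, 4 with an offset of 1, 35 with an offset of 64, 38 with all 24 arrays in the fit, 31 without the 2 arrays high in adipose or pancreas genes (chosen after seeing the data), and 3 to 50 when 1 array was left out, the extremes being the second and the first array of day 3. Without the first, the second or the third array of day 4 the count was 6, 6 and 7, without the second array of day 5 it was 12, and without the second or the third colon array 12 and 11. Probe sets that differed from colon numbered 6337 on day 3 (3753 with the arrays of that day and colon alone, 4012 at a log2 difference of at least 1, 3919 to 7097 when 1 array was left out, the lowest without the second colon array), 4434 on day 4 (2850 to 4957, the lowest without the first array of day 4), 4199 on day 5 (6546 with array weights, 2714 to 4772, the lowest without the second array of day 5) and 6338 for the mean of the days (2935 at a log2 difference of at least 1, 4100 to 7246, the lowest without the second colon array). The cause of these changes was not tested, except that a minimum difference can only remove calls. No paired analysis was possible because the labels give these groups no shared replicate numbers that tie mice together. Region, genotype, transgene and treatment cannot be told apart, and 3 colon arrays carry all 3 day contrasts.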
